A study of Mus musculus with 2 samples.

Results

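The 9 genes described here encode growth factor receptor tyrosine kinases: Pdgfra, Pdgfrb and Kit, the VEGF receptors Flt1, Kdr and Flt4, the neurotrophin receptors Ntrk2 and Ntrk3, and Ret. They were chosen by name, as every non-control promoter probe annotated to one of them, alone or in a divergent gene pair. They have 359 usable probes of 474222, and all 9 are among the 16908 genes with at least 3 probes. The study used ChIP-chip to map the Polycomb protein Ring1B over gene promoters in mouse ES (embryonic stem) cells. DNA recovered with a monoclonal Ring1B antibody (IP, Cy5) was hybridised together with input DNA (Cy3) from cells fixed with formaldehyde, both after amplification by linker-mediated PCR. The 2 arrays make up one promoter set and have 0 probe names in common, so each promoter was measured once, from 1 IP and 1 input, and no test or p-value was possible. The labels name no ES line, strain or treatment, no mock IP or Ring1B-deficient control was analysed here, and the source names start with Muscle although the titles say ES cells. DNA arrays carry no expression markers, so the labelled cell type was not checked against any.

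Receptor tyrosine kinases span the cell membrane, pair up when a growth factor binds outside the cell, and phosphorylate tyrosines on each other and on signal proteins inside it. In the embryo the group described here has known roles in several lineages. PDGF receptors act in mesoderm and its mesenchyme, Kit in blood, germ and pigment cells, and VEGF receptors in blood and lymph vessels. Ret acts in enteric neurons and the kidney, and Trk receptors in neurons. Whether the ES cells expressed these genes was not measured here. Ring1B, encoded by Rnf2, is the ubiquitin ligase of Polycomb repressive complex 1, which marks histone H2A and is known for holding developmental genes silent in ES cells, often at CpG-rich promoters.

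Every value is a log2 ratio of IP over input signal, minus that of the median probe of the same array, so 0 stands for the median probe and 1 for 2-fold above it. Means are taken over all promoter probes of a gene, and the SD beside a mean describes spread along the promoter and is no replicate error. The arrays held 237054 and 237168 usable probes, with an SD over probes of 1.33 and 1.44. IP signal stood well above background at 77.2% and 80.6% of them, and input signal at 74.1% and 76.3%. Precision is limited by the number of arrays, and IP and dye cannot be told apart, since both arrays had the same dye orientation.

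Selected receptor probes are shown here, 5′ to 3′ as the array files give them, with each CpG in capitals. For Pdgfra, Flt1, Ntrk3, Kdr and Ret they are the probes with the highest ratio among those with both signals well above background. For Kit and Ntrk2 they are probes that lie whole within the RefSeq promoter. Probes of Pdgfra and Kdr that lie whole within theirs had lower ratios, 0.83 and 0.10, and are not shown. The last 2 are the lowest probes of Kdr and Ret. Distances are from the transcription start, negative upstream, and the coordinates are those of the array files, genome build not given in the sources used here. Of 11321 array probes that matched a RefSeq promoter, 99.7% were written on the plus strand.
Pdgfra probe at 1074 bp, chr5:74571646-74571695: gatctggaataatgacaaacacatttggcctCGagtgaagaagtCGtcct
Flt1 probe at -1717 bp, chr5:146622086-146622133: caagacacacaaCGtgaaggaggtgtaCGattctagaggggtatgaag
Ntrk3 probe at -999 bp, chr7:74439475-74439525: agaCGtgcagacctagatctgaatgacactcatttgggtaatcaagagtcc
Kdr probe at 461 bp, chr5:75398495-75398546: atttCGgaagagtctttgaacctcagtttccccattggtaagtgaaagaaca
Ret probe at 1215 bp, chr6:118221353-118221405: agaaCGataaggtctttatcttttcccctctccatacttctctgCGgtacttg
Kit probe in its RefSeq promoter, chr5:74993055-74993099: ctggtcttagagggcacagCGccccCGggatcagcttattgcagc
Ntrk2 probe in its RefSeq promoter, chr13:57901134-57901178: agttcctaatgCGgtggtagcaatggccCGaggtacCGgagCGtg
Kdr probe at -4056 bp, chr5:75403008-75403067: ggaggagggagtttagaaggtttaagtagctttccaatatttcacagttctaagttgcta
Ret probe at -2088 bp, chr6:118224656-118224708: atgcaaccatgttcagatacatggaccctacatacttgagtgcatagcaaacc

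The Pdgfra probe had an IP signal of 25532 and an input signal of 1002, a centred log2 ratio of 4.44, the highest of all 359 receptor probes. The Flt1 probe had 3078 in IP and 157 in input, a log2 ratio of 4.06. It stood alone, outside both high regions of Flt1 described below. The probes beside it, at -1568 and -1893 bp, had 1.28 and -0.30, and the mean over 500 bp either side was 0.48. The Ntrk3 probe had 10246 in IP and 681 in input (log2 ratio 3.68), and the Ret probe downstream of the start 4100 in IP and 398 in input (3.14). The Kdr probe reached 8213 in IP and 1005 in input (2.80). The Kit promoter probe had 6335 in IP and 1364 in input (1.99), and the Ntrk2 promoter probe 5864 in IP and 2067 in input (1.34). At the low end, the distal Kdr probe had 399 in IP and 6027 in input (log2 ratio -4.15). The upstream Ret probe had 142 in IP and 4625 in input (-5.25), the lowest of the receptor probes.

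The 250 bases before the start of 5 receptors are shown because the receptor with the highest mean ratio had the fewest CpG there. RefSeq promoters were matched by symbol for Pdgfra, Kit, Kdr, Flt1, Flt4 and Ntrk2. The sequences are RefSeq's, on the gene's own strand, 5′ to 3′, with each CpG in capitals.
Pdgfra promoter, GRCm38.p6 chr5:75152001-75152250, plus strand: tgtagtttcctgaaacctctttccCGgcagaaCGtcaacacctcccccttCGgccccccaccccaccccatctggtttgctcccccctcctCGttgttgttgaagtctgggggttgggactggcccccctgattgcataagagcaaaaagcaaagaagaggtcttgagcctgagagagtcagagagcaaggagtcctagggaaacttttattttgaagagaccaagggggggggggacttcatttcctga
Kit promoter, GRCm38.p6 chr5:75574737-75574986, plus strand: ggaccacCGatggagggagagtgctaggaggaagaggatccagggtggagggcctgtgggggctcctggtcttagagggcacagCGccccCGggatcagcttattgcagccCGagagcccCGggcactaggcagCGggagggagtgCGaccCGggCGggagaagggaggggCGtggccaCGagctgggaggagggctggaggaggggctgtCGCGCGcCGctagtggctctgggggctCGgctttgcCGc
Kdr promoter, GRCm38.p6 chr5:75978456-75978705, minus strand: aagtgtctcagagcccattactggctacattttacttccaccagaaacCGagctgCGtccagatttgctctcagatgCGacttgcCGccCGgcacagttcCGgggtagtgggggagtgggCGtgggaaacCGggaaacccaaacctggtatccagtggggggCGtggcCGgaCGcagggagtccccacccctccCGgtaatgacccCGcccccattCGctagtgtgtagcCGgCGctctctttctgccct
Flt1 promoter, GRCm38.p6 chr5:147726012-147726261, minus strand: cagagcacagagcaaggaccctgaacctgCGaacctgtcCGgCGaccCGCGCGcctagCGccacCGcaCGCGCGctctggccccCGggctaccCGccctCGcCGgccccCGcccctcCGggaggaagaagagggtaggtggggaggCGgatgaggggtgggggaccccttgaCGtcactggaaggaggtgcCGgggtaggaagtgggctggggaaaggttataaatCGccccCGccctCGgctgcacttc
Ntrk2 promoter, GRCm38.p6 chr13:58806319-58806568, plus strand: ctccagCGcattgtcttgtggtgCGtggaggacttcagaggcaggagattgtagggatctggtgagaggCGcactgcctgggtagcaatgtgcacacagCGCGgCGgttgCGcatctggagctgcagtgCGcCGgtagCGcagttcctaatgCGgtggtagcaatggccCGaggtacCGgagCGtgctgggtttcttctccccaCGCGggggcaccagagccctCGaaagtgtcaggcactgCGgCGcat

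Pdgfra, the receptor with the highest mean ratio, had 4 CpG in these bases, against a median of 6 over 27025 promoters of the same length. Its highest ratios lay outside these bases, and the probe that lies whole within them had 0.83. Over all its probes Pdgfra had 2.10 CpG per 100 bases, against 2.27 in Flt1, 1.95 in Ntrk2, 1.75 in Kit and 1.34 in Kdr. Kit had 17, Kdr 16, Ntrk2 19 and Flt1 23 (more than 87.0% of promoters). The GC box letters GGGCGG, searched on both strands, occurred 0 times in Pdgfra and Ntrk2, 1 time in Kit, 2 times in Kdr and 3 times in Flt1, and 32.9% of all promoters held it. The letters CCAAT were in 0 of these 5, against 34.5% of all promoters, and TATAAA occurred once, in Flt1 (13.0% of all promoters). A copy of GGGCGG holds 1 of the counted CpG, and the other motifs share no base with it. These matches describe letters in a window and say nothing of a factor bound there.

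Around the transcription start, most of the receptors had ratios of IP over input well above the median probe. Within 1000 bp of the start, 6 of the 8 receptors with at least 3 probes there averaged 1 or more on the log2 scale: Flt1, Pdgfra, Kdr, Ntrk3, Ntrk2 and Kit. Of all 15801 genes measured in that window, 1274 (8.06%) did, and 0 of the 8 receptors but 6.60% of all genes were at or below -1. The median was 1.57 for the 8 receptors and 0.03 for all genes. Over whole promoters, which reach further upstream and into the gene, 2 of 9 receptors were at or above 1, Pdgfra and Flt1, against 1.99% of all genes. None of the 9 was at or below -1, where 1.85% of all genes lay. Of all genes past 1 in size 51.8% were above, a share that was 88.0% with normexp background correction, 89.4% in the deposited series table, 80.0% without centring, 75.2% with loess, 63.1% with GC-corrected ratios, 39.2% without probes at floor values and 23.5% without probes dim in input, while the counts of 2 and 0 receptors held in each. The median was 0.50 over the receptors and -0.10 over all genes. Regions were runs of 3 or more probes with a running mean, over 500 bp either side, that stayed at 1 or above. They reached 2000 bp or more at 5 of 9 receptors (Pdgfra, Flt1, Kdr, Kit and Ntrk2), against 3.04% of all genes. With the sign turned, 0 of 9 receptors and 0.988% of all genes had one. The receptors had a median of 40 probes and all genes 28, and these shares were not adjusted for that.

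**Figure D1:**
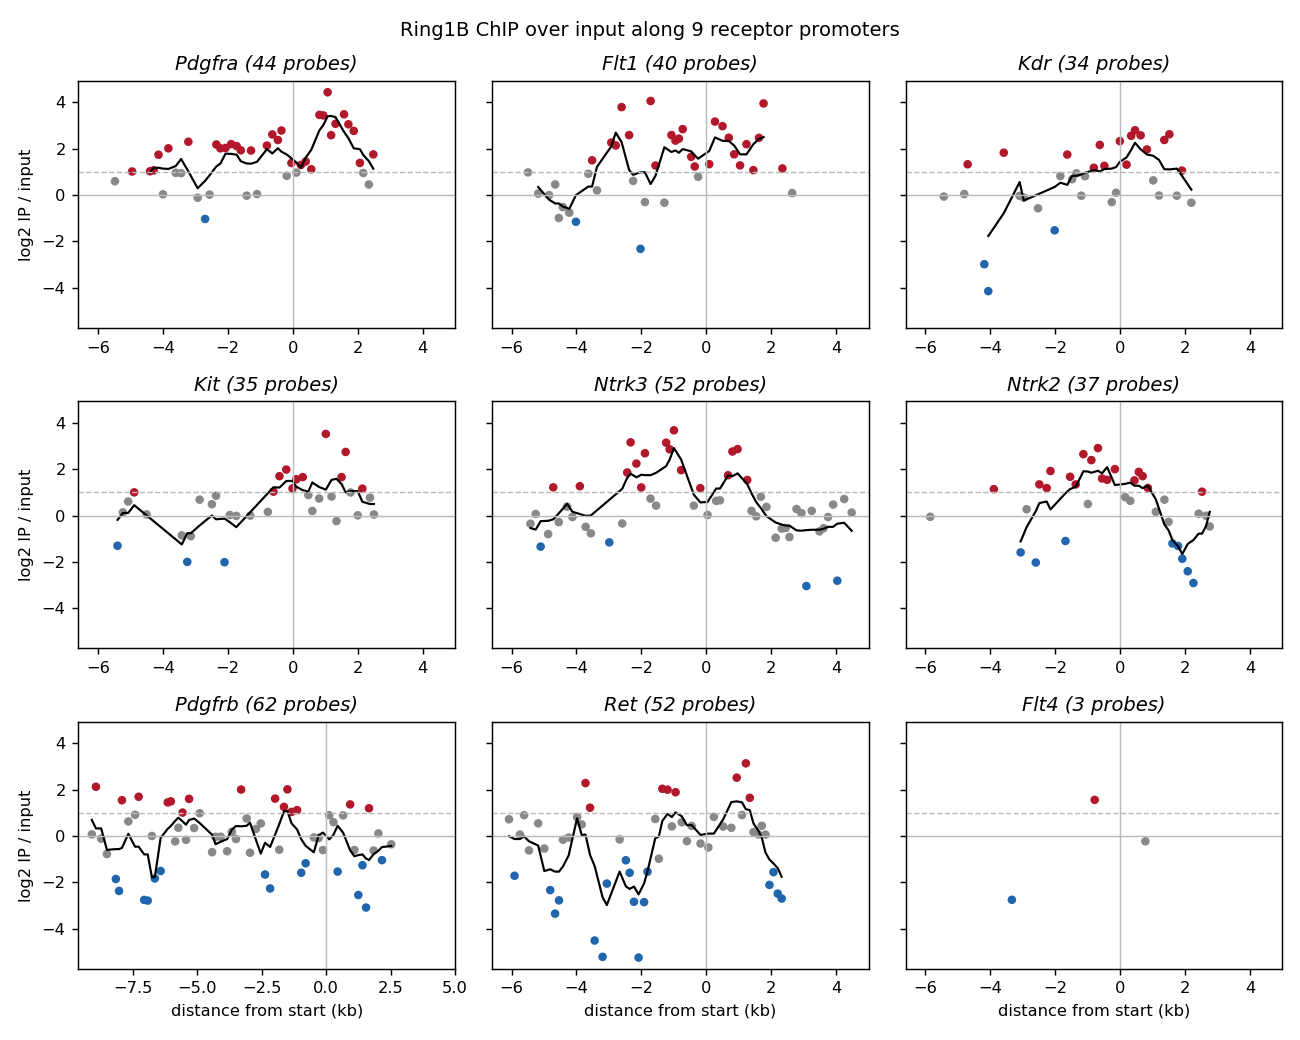
Log2 ratio of IP over input at each probe (points) against distance from the transcription start in kb, for the 9 receptors in order of their mean. Red points are at or above 1, blue at or below -1, grey between, and the black line is the running mean over 500 bp either side. Pdgfra stays high along nearly the whole promoter, Flt1, Kdr, Kit, Ntrk2 and Ntrk3 carry their longest high stretch around or just upstream of the start, and Ret holds a low stretch upstream.

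Pdgfra, the alpha receptor for PDGF, which marks early mesoderm and mesenchyme, averaged 1.66 ± 1.15 over 44 probes (SD; chromosome 5, 74565094 to 74573102). This was 3.16-fold above the median probe and rank 71 of 16908 genes. Of the 44 probes, 31 reached 1 (70.5%, against 17.7% of all probes of array 1) and 1 reached -1. A region of 4880 bp from -2351 to 2481 bp held 31 probes with a mean of 2.01. A second one of 1124 bp lay upstream, from -4282 to -3214 bp, with a mean of 1.30. The highest stretch was downstream of the start. There, 8 consecutive probes from 821 to 1879 bp had ratios of 3.46, 3.44, 4.44, 2.59, 3.08, 3.49, 3.06 and 2.77. At the start itself the ratios were lower, at 0.83 at -185 bp, 1.39 at -41 bp and 0.97 at 112 bp. The profile thus had 2 high arms with lower ratios between them. Inside the upstream arm, the probes at -1419 and -1099 bp had ratios of -0.02 and 0.05 while their signals were high in both channels, 11925 in IP and 10340 in input at the first and 20711 in IP and 17114 in input at the second.

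Kit, the receptor for stem cell factor in blood stem cells, germ cells and melanocytes, had a mean of 0.55 ± 1.16 (SD, 35 probes; chromosome 5, 74987854 to 74995806), rank 1084. The mean covered 2 unlike stretches. From -6500 to -2500 bp the 9 probes averaged -0.29, and between -1000 bp and the start the 5 probes averaged 1.21. The region at or above 1 reached over 2149 bp from -594 to 1504 bp with a mean of 1.28. Consecutive probes at -408, -199, -7, 112 and 308 bp had 1.70, 1.99, 1.17, 1.57 and 1.66, all above 1. Its highest ratio, 3.52 at 1019 bp, came from a dim input signal of 63 beside an IP signal of 846. The region held this probe, and its length without the probe was not computed. In 11 of the 35 probes input was not well above background.

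Pdgfrb, the beta receptor for PDGF in pericytes and smooth muscle, showed no such pattern. Its mean was -0.09 ± 1.33 (SD, 62 probes; chromosome 18, 61425711 to 61437363), rank 8334, with 15 probes at 1 or above and 15 at -1 or below (24.2% each; for array 2 as a whole, 21.7% and 20.9%). No run of 3 probes had a running mean of 1 or more, and the highest running mean was 1.07. It shares its upstream probes with Cdx1, a homeobox regulator of the trunk that is transcribed in the opposite direction. The 48 shared probes averaged 0.01 and the 14 inside Pdgfrb averaged -0.43. The 19 probes inside Cdx1 averaged 0.38, and the 67 of Cdx1 in all 0.11. Of the PDGF receptors, Pdgfra was high and Pdgfrb lay at the level of the median probe.

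Flt1, the VEGF receptor that also serves as a decoy for VEGF, had a mean of 1.31 ± 1.48 (SD, 40 probes; chromosome 5, 146617722 to 146625915), a 2.48-fold excess, and rank 179. Of its probes, 24 (60.0%) reached 1 and 2 reached -1. The main region spanned 3107 bp from -1293 to 1760 bp with a mean of 2.02 over 18 probes, and from 87 to 1760 bp all 10 probes lay between 1.08 and 3.96. A second region of 1044 bp, from -3368 to -2379 bp, had a mean of 2.20 but a median input signal of 95.8 beside a median IP signal of 676, near the dim end of the array. Within 1000 bp of the start Flt1 had the highest mean of the receptors, 2.10 ± 0.78 (SD, 11 probes), rank 88 of 15801.

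Kdr, the main signalling receptor for VEGF in endothelium and a marker of the blood and vessel lineage in mesoderm, had 0.68 ± 1.54 (SD, 34 probes; chromosome 5, 75396757 to 75404436), rank 723. The high probes lay around the start. From 200 to 827 bp the 5 probes had ratios of 1.32, 2.56, 2.80, 2.58 and 1.97, and the region at or above 1 ran over 2608 bp from -806 to 1749 bp with a mean of 1.47. The probe at -122 bp, which lies whole within the RefSeq promoter shown above, had a ratio of 0.10. Its signals were strong in both channels, 9054 in IP and 7201 in input. Upstream, 2 neighbouring probes went the other way, with -2.98 at -4178 bp and -4.15 at -4056 bp. The mean within 1000 bp of the start was 1.63 ± 1.03 (SD, 11 probes), and from -6500 to -2500 bp it was -0.52 over 9 probes.

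Flt4, the receptor for VEGF-C in lymph vessels, was tiled by 3 probes (chromosome 11, 49563508 to 49567674), which is the minimum a gene needed. Their ratios were 1.56 at -780 bp, -0.23 at 780 bp and -2.76 at -3330 bp, a mean of -0.48 ± 2.17. These distances are from the midpoint between the last promoter probe and the probe inside the gene, which need not be the true start. The probes differ in sign, and their mean says little about the promoter.

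Ntrk3, the receptor for neurotrophin-3, had a mean of 0.50 ± 1.43 (SD, 52 probes; chromosome 7, 74434003 to 74443944), rank 1262. It had 2 separate regions. The larger covered 1868 bp upstream, from -2592 to -777 bp, with a mean of 1.97 over 12 probes, and rose highest at -1239, -1132 and -999 bp with 3.15, 2.86 and 3.68. The smaller covered 1003 bp inside the gene, from 302 to 1257 bp, with a mean of 1.70 over 6 probes. Between them the probe at 36 bp had 0.02 with dim signals (80 in IP, 67 in input). Further inside the gene, beyond 2500 bp, the 12 probes averaged -0.52.

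Ntrk2, the receptor for BDNF, had a mean of 0.46 ± 1.47 (SD, 37 probes; chromosome 13, 57895734 to 57905304), rank 1505. Its region of 2443 bp had a mean of 1.62 over 15 probes and ran from -1538 to 857 bp. For array 2 the files give no distance, and the start was placed midway between the last promoter probe and the first probe inside the gene, called the boundary here. The probe that matched the RefSeq promoter places the RefSeq start 1278 bp before that boundary, so measured from RefSeq's start the same region ran from -286 to 2156 bp. The mean within 1000 bp was 1.56 ± 0.71 (SD, 12 probes) around the boundary and 1.51 ± 1.11 (SD, 11 probes) around the RefSeq start. Directly downstream the ratios turned low. Over 700 bp from 1614 to 2259 bp beyond the boundary, 5 probes had -1.21, -1.31, -1.87, -2.41 and -2.91.

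Ret, the receptor for GDNF-family ligands in enteric neurons and ureteric bud, had a mean of -0.46 ± 1.90 (SD, 52 probes; chromosome 6, 118220251 to 118228702), rank 13869, with the widest spread over probes of the 8 receptors that had more than 3 probes. Both directions occurred in separate stretches. A 621 bp region from 768 to 1335 bp inside the gene had a mean of 1.71 over 5 probes. Against it stood 3 stretches with the sign turned. The longest, 1677 bp from -3440 to -1813 bp, had a mean of -2.71 over 10 probes, with a median IP signal of 282 and a median input signal of 3219. The others covered 627 bp (mean -1.84) and 429 bp (mean -2.22). In all 17 of 52 probes (32.7%) were at or below -1, against 20.4% of all probes of array 1. Within 1000 bp of the start the mean was 0.60 ± 0.96 (SD, 10 probes), rank 3017. What lowers IP relative to input in these stretches was not tested.

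**Figure D2:**
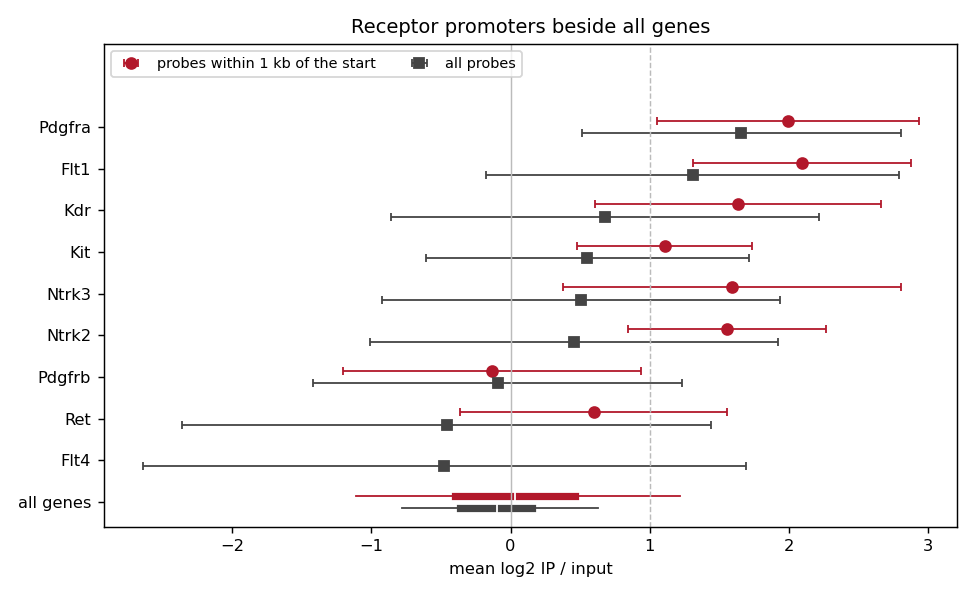
Mean log2 ratio of IP over input for each receptor over all its probes (grey squares) and over probes within 1 kb of the start (red circles), with bars for the SD over probes. The bottom row gives all genes as 5th to 95th percentile (thin bar), quartiles (thick bar) and median (white tick). Near the start 6 receptors lie above 1, and over all probes 2 do. Flt4 has too few probes near the start for a red point.

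Set in order of their means, the receptors ran Pdgfra, Flt1, Kdr, Kit, Ntrk3, Ntrk2, Pdgfrb, Ret and Flt4. Every gap between neighbours in this order was smaller than the smaller SD over probes of the pair. The largest were 0.63 between Flt1 and Kdr and 0.55 between Ntrk2 and Pdgfrb, and the smallest was 0.02 between Ret and Flt4. Neighbours in a sorted order lie close by construction, and an SD over probes is not the error of a mean. The comparison therefore cannot tell whether neighbouring receptors differ.

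Most receptors had their high ratios on both sides of the start. From the start to 1000 bp downstream, the mean was 2.35 in Flt1, 2.25 in Kdr, 1.96 in Pdgfra, 1.45 in Ntrk3, 1.29 in Ntrk2 and 1.01 in Kit. Ret had 0.72 and Pdgfrb 0.44 there. Probes of all other genes in that window averaged 0.03 on array 1 and 0.09 on array 2. From -6500 to -2500 bp no receptor averaged 1, and the mean was 0.82 in Pdgfra, 0.64 in Flt1 and 0.32 in Pdgfrb. In Flt1 the probes ran from -1.15 to 3.80 there and included part of its upstream region with dim input. The others were below 0, with -0.21 in Ntrk3, -0.29 in Kit, -0.45 in Ntrk2, -0.52 in Kdr and -0.82 in Ret. Probes of all other genes averaged -0.19 on array 1 and -0.13 on array 2 in that stretch.

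High ratios went with CpG in the probe itself, which the choice of genes did not use. The 80 receptor probes with at least 2 CpG averaged 1.23, the 100 with 1 CpG 0.60 and the 179 with none 0.12. Shares at or above 1 were 55.0%, 43.0% and 28.5%. Other probes of the arrays ran in the same order at a lower level, with 0.18, -0.08 and -0.20 on array 1 and 0.25, 0.00 and -0.13 on array 2. In Pdgfra 14 of the 15 probes with at least 2 CpG were at or above 1, and 11 of the 18 with none were too (mean 1.26). In Flt1, 12 of 14 and 8 of 19 were. Kdr, Ntrk3 and Pdgfrb did not follow the order. Kdr had 0.47 over 7 probes with at least 2 CpG, 1.26 over 10 with 1 and 0.42 over 17 with none. Ntrk3 had 0.57, 1.06 and 0.21 in these classes, and Pdgfrb 0.36, -0.31 and -0.11. Input signal moved with CpG as well, at a median of 1159 in receptor probes with at least 2 CpG and 490 in those with none. CpG also varied with distance from the start. Probes of all other genes of array 1 averaged 2.85 CpG per 100 bases from 0 to 1000 bp and 0.78 from -6500 to -2500 bp. The parts of input signal and position in the ratios were not tested.

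The signals behind the ratios were not confined to the dim end. The 138 receptor probes at or above 1 had a median IP signal of 2124 and a median input signal of 501. The 54 at or below -1 had 530 in IP and 2315 in input. Both signals of a probe stood at the floor value in 12.0% of the receptor probes between the 2 sets. The share was 0% in either set, which says nothing more, since such probes have ratios near 0. CpG averaged 2.39 per 100 bases in the high probes and 0.83 in the low ones.

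**Figure D3:**
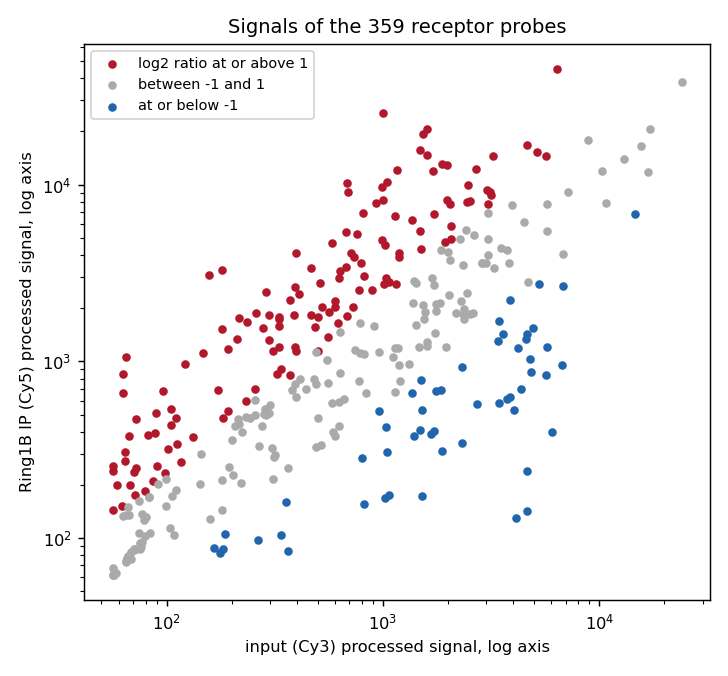
Processed IP signal against processed input signal, both on log axes, for the 359 receptor probes, coloured by log2 ratio class. The 138 red probes at or above 1 reach from dim to bright signals, with a median of 2124 in IP and 501 in input, and the 54 blue probes at or below -1 lie mostly at input signals above 1000, with a median of 2315.

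Pdgfra, Kit and Kdr are neighbours on chromosome 5, and all 3 had a region of at least 2000 bp. That of Kit, at 2149 bp, held the probe with dim input described above. The promoters tiled within 500 kb of these 3 genes numbered 6, in the order Lnx1, Chic2, Gsh2, Pdgfra, Kit and Kdr. Gsh2, now named Gsx2, a homeobox regulator of the forebrain, was the only other one with a high mean, 1.42 ± 1.30 (SD, 41 probes), with a region of 3209 bp at a mean of 2.08. It ended 68.8 kb before the Pdgfra probes. Chic2, 20.2 kb further out, had 0.15, and Lnx1, which encodes a ubiquitin ligase, had -0.43. Gaps of 415 kb and 401 kb, not tiled on the array, separated Pdgfra from Kit and Kit from Kdr. Flt1 lies on the same chromosome far from these genes. The means along the locus were highest at Pdgfra and Gsh2 and lower at Kit (0.55) and Kdr (0.68), with SDs over probes that overlap.

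**Figure D4:**
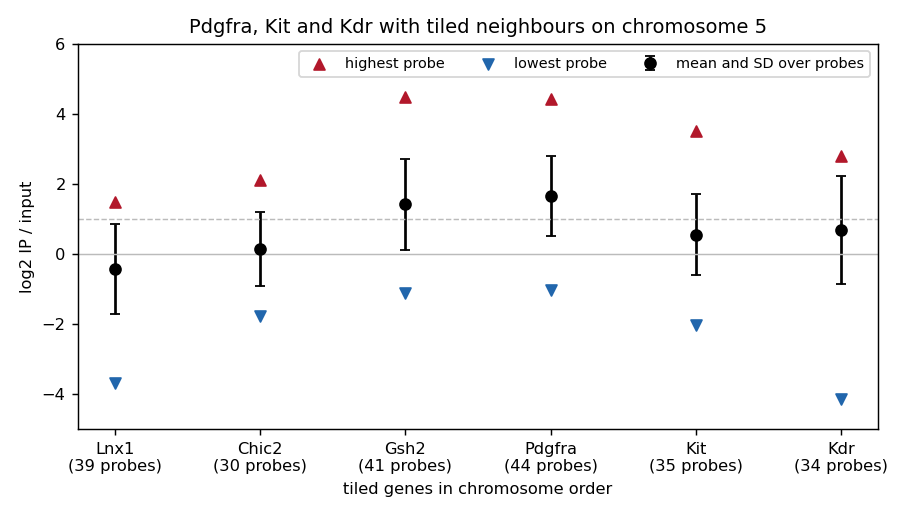
Mean log2 ratio with SD over probes (black), highest probe (red) and lowest probe (blue) of the 6 promoters tiled around Pdgfra, Kit and Kdr, in chromosome order and not to scale. Gsh2 and Pdgfra lie above 1 in the mean, at 1.42 and 1.66, and Chic2 and Lnx1 lie near or below 0.

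Of the other genes of these pathways, most co-receptors had high ratios around the start, whereas most ligands and signal proteins lay near the median probe. Over whole promoters, 2 of 93 measured genes in 4 lists (2.15%) were at or above 1, near the 1.99% of all genes. As many, 2, were at or below -1, near the 1.85% of all genes. Both high genes were among the 7 co-receptors, whose median was 0.52 against -0.10 for all genes. Nrp2, a co-receptor for VEGF and semaphorins, had 1.41 and a region of 4671 bp. Gfra1, the co-receptor through which GDNF reaches Ret, had 1.15 and a region of 5379 bp. Gfra2, which binds neurturin, had 0.90 and a region of 4475 bp, and Ngfr, the p75 neurotrophin receptor, had 0.52. The lowest were Gfra4 at 0.21 and Gfra3 at 0.37.

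Within 1000 bp of the start, 5 of the 7 co-receptors were at or above 1, and their median was 1.46, against 8.06% and 0.03 for all genes. Gfra1 had 2.22, Nrp2 1.79, Gfra2 1.54, Nrp1 1.46 and Gfra3 1.24, while Gfra4 had -0.26 and Ngfr 0.99. For the co-receptors and the other lists, this window was chosen after the data were seen, as were the names of Nrp1, Bdnf, Ntf5, Pdgfc, Erbb3, Fgfr3 and Ddr1 here. Of the co-receptors of Ret, Gfra1, Gfra2 and Gfra3 were thus higher there than Ret itself at 0.60 and Gfra4 was lower, with an SD over probes of 1.19 for Gfra1 and 0.96 for Ret.

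None of the 18 ligand genes was at or above 1 or at or below -1 over the whole promoter, against 1.99% and 1.85% of all genes. Their median was -0.14. The highest were Kitl, the ligand of Kit, at 0.78, Pdgfa at 0.76, Ntf3, which encodes neurotrophin-3, at 0.73 and Gdnf at 0.61. The lowest were Pgf, which encodes placental growth factor, at -0.66 and Pspn, which encodes persephin, at -0.56. Near the start 3 of 18 were at or above 1, against 8.06% of all genes. They were Ntf3 at 1.38, Gdnf at 1.05 and Bdnf, the ligand of the Ntrk2 product, at 1.02. Ntf3 also carried a region of 2513 bp. The ligands' median near the start was -0.08, with Pdgfc at 0.87 and Ntf5 lowest at -0.88.

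Among 42 other receptor tyrosine kinases, 0 were at or above 1 over the whole promoter, against 1.99% of all genes. At or below -1 were 2, against 1.85% of all genes, and the median was 0.02. Ephb1, an ephrin receptor, and Egfr, the receptor for EGF, both had 0.65, Flt3, a blood cell receptor of the Kit family, had 0.64, and Fgfr2 had 0.64 with a region of 2958 bp. Mst1r, the receptor for macrophage-stimulating protein, was lowest at -1.46, followed by Axl, the receptor for Gas6, at -1.01. Near the start 5 of 41 were at or above 1, against 8.06% of all genes (Fgfr2 2.21, Egfr 1.54, Fgfr3 1.16, Ephb1 1.14 and Ddr1 1.05). At or below -1 there were 3, against 6.60% of all genes (Mst1r -1.48, Axl -1.06 and Erbb3 -1.06). The median was 0.35. Erbb4 and Ddr2 were not analysed here.

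The signal proteins that all these receptors share inside the cell lay at the level of the median probe. Of 26 measured, 0 reached 1 and 0 reached -1, against 1.99% and 1.85% of all genes, with a median of -0.05. The adaptor Grb2 had 0.68, the neuronal adaptor Shc3 0.43 and Map2k1, which encodes MEK1, 0.26. The FGF receptor adaptor Frs2, at the low end, had -0.57. Near the start 1 of 26 was at or above 1, Shc3 at 1.51, against 8.06% of all genes.

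**Figure D5:**
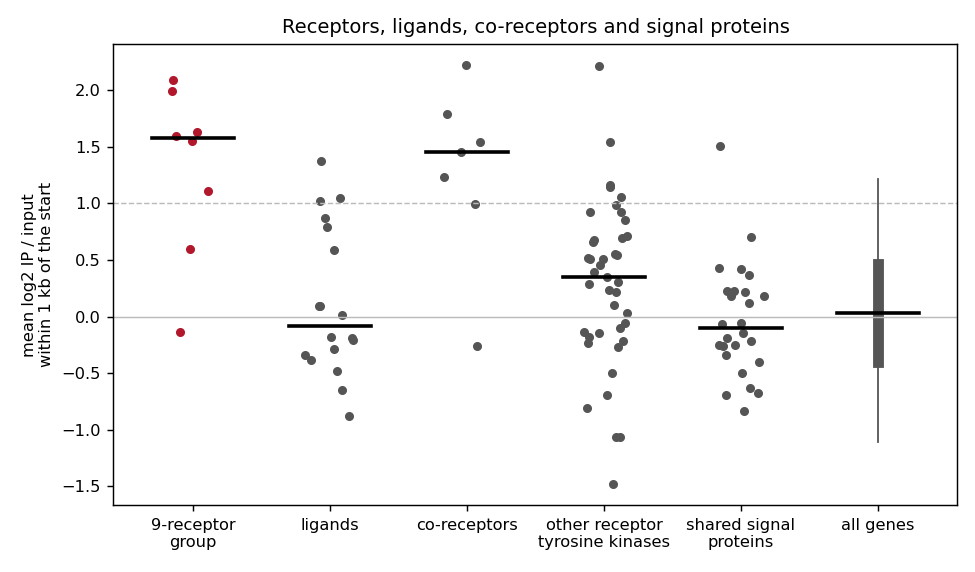
Mean log2 ratio within 1 kb of the start for each gene of the 9-receptor group (8 measured there), the ligands (18), co-receptors (7), other receptor tyrosine kinases (41) and shared signal proteins (26), with list medians as black lines. All genes are shown as 5th to 95th percentile, quartiles and median. Medians are 1.57 for the receptor group, 1.46 for co-receptors, 0.35 for other receptor tyrosine kinases, -0.08 for ligands, -0.10 for signal proteins and 0.03 for all genes.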

How the data were processed

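Per the labels, IP DNA carried Cy5 and input DNA Cy3 on both arrays. Per the file headers, Agilent Feature Extraction (version 9.1.3.1) produced the deposited files, which hold processed fluorescence intensity per channel, background-subtracted and dye-normalised, with dim spots at a floor value, and the log10 ratio of red over green. The authors' deposited series table holds log2 ratios of mean signals, uncentred (medians 0.791 and 0.818, largest difference from the array files 5e-05), and served as an alternative. The log2 ratio of the deposited processed signals was computed here, after leaving out control spots and 141 and 17 outlier probes, and centred on each array's median (0.23 and 0.16). Floor values filled both channels at 18.2% and 15.5% of probes. Neither loess nor quantile normalisation entered the main values. Genes needed 3 probes, and regions needed gaps under 1000 bp. The design foresaw limma across arrays only for shared probes, of which there were none. The procedure was tested on simulated data.

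The members, the pathway lists, the rules and the alternatives were chosen with earlier results of these data known. The rule for named genes took all members, the tiled chromosome 5 neighbours and the 4 highest and 2 lowest genes of each pathway list by whole-promoter mean. Some genes that the rule takes are not reported here. Ligands, co-receptors, other receptor tyrosine kinases and shared signal proteins numbered 18, 7, 45 and 30 genes, of which 18, 7, 42 and 26 had probes used here. Alternatives were uncentred ratios, within-array loess, normexp background correction (offset 50), the series table, GC-corrected ratios, the probe median, leaving out floor probes or probes dim in input, keeping outlier probes, other windows, thresholds, gaps and runs, and, for Pdgfrb, probes named for it alone. A minimum of 20 probes and the 1000 bp window for the pathway lists were added after the data were seen. Tools were Python 3.11.15, R 4.3.3 and limma 3.58.1. RefSeq sequences are of GRCm38.p6.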

Additional observations from a re-analysis of the deposited data

How the results depend on the processing

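The count of 2 receptors at or above 1 over whole promoters held under normexp, loess, no centring, the series table, both filters on dim probes, outlier probes kept, GC correction, the probe median, names alone, a minimum of 20 probes (8 receptors left) and a threshold of 0.75. It was 1 of 9 at 1.5, Pdgfra, and 6 of 8 within 1000 bp of the start. All genes numbered 1274 of 15801 within 1000 bp, 590 at 0.75 and 110 at 1.5, against 337 in the main setting and 333 to 505 in the others, except 292 of 13722 with at least 20 probes. Within 1000 bp, the same 6 receptors stayed at or above 1 under the 8 other scalings, filters and summaries tried, a check added after the data were seen. There, Kit had its lowest value at 1.10 and Ntrk3 at 1.46, and all genes numbered 1942 without centring and 1231 to 1803 in the others. The scalings moved the median of all genes by up to 0.20 (no centring) and -0.18 (without probes dim in input). Receptors with a long region numbered 5 or 6 in all settings tried for regions, Ntrk3 joining with a 1000 bp running mean, normexp or GC correction. None of these settings left out probes dim in input, such as the Kit probe at 1019 bp. Pathway genes at or above 1 numbered 4 with normexp and 14 of 92 within 1000 bp, against 2 of 93.

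Over whole promoters, Pdgfra ranged from 1.66 to 2.04 and Flt1 from 1.26 to 1.54 over the alternatives. Kit, Kdr, Ntrk2 and Ntrk3 passed 1 only within 1000 bp, at 1.11, 1.63, 1.56 and 1.59. The sign of Ret was positive in 1 of 11, and that was the window within 1000 bp (0.60). Over whole promoters it stayed negative, from -0.61 without probes dim in input to -0.005 with the probe median. The sign of Pdgfrb was positive in 4 of 11 and that of Flt4 in 2 of 10, so Pdgfrb and Flt4 have no settled direction. No paired analysis was possible because each promoter was measured on 1 array. With 1 IP and 1 input, biological spread is unknown, and dim input limits the ratios at Kit and upstream Flt1.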
